A study of Mus musculus with 3 samples.

Results

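The insulin-like growth factor (IGF) genes described here are 10 rows of an expression table of NIH3T3 fibroblasts, picked by symbol from 15554 rows. They are the ligands *Igf1* and *Igf2*, the receptors *Igf1r* and *Igf2r*, and the binding proteins *Igfbp2* to *Igfbp7*. The NIH3T3 line derives from mouse embryonic fibroblasts. Cells were kept in serum-free medium for a day, and then received fresh serum-free medium for 24 h, either without stimulation (CTRL), with 100 ng/mL of GDF15, or with 4 ng/mL of TGF-β. RNA was pooled within each treatment, and 1 library was sequenced per treatment, so the differences below lack replication and carry no p-value. In such bulk RNA, fewer cells of a type and less RNA per cell cannot be told apart. The comparisons ask how far the response to GDF15, a member of the TGF-β superfamily, resembles that to TGF-β.

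IGF1 and IGF2 are secreted peptides that promote survival and growth through IGF1R, a receptor tyrosine kinase that signals by way of insulin receptor substrates, PI3-kinase and AKT. IGF2R, which is also the cation-independent mannose 6-phosphate receptor, takes IGF2 into lysosomes for degradation and carries no kinase. The binding proteins hold IGFs outside the cell, either protecting them or keeping them from the receptor, and proteases release the ligand again. IGFBP6 prefers IGF2 over IGF1, whereas IGFBP7 binds IGFs only weakly and is mostly studied as a matrix and vessel protein.

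Values are FPKM, which scale fragments by exon length and by library size, so that levels of different genes can be set side by side. A change is the difference of log2(FPKM + 1) between libraries, which understates the change of low genes. Steps of single fragments in the low values put the depth at 17.3 M (CTRL), 20.4 M (GDF15) and 16.7 M (TGF-β) fragments, with M for 1000000, and fragment numbers below are estimates from these depths and the longest coding transcript. Intervals of a ratio are exact 95% binomial (Clopper-Pearson) intervals of such fragments, and they cover counting error only. In place of a replicate error, changes are set beside the local spread, a scaled median absolute deviation taken from the 500 genes closest in mean level. Of 10 fibroblast markers, 9 averaged 1 FPKM or more, and *Lum* was at 0, 0 and 0.030 in CTRL, GDF15 and TGF-β. Of the markers of other cells, 0 of 5 epithelial, 2 of 5 macrophage (*Cd68* and *Lyz2*), 0 of 5 endothelial, 1 of 5 adipocyte (*Lpl*) and 0 of 5 skeletal muscle genes averaged 1 FPKM or more. The summed FPKM of the macrophage list was 7.10, 7.47 and 5.89 (CTRL, GDF15, TGF-β), with *Emr1* at 0, and that of the adipocyte list 43.7, 58.9 and 44.7. As a check of the response, the myofibroblast gene *Acta2* exceeded CTRL by 1.80 after GDF15 and by 2.18 after TGF-β on the log2 scale, and the growth factor gene *Ctgf* by 2.08 and 2.96.

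The fibroblasts transcribed part of the system strongly and left the rest near 0. Of the 10 genes, 6 averaged 1 FPKM or more across libraries, and these 6 held the same order in each library: *Igfbp6*, *Igfbp4*, *Igf2r*, *Igfbp7*, *Igf1r* and *Igf2*. In CTRL, *Igfbp6* ranked 117th from the highest among all rows and *Igf2* 5320th. The other 4, *Igf1*, *Igfbp2*, *Igfbp3* and *Igfbp5*, had at most an estimated 7.45 fragments in any library.

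**Figure D1:**
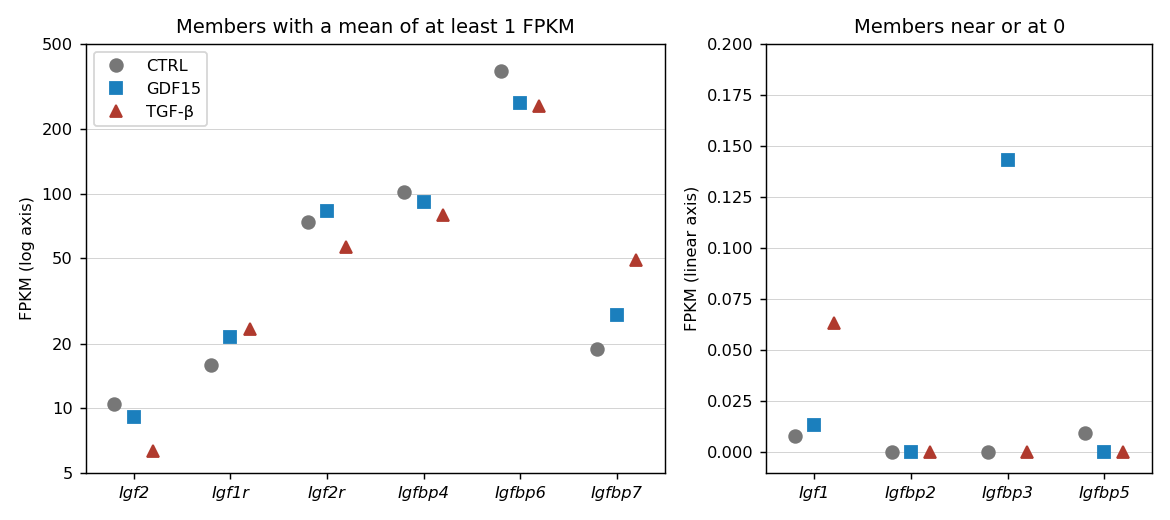
FPKM of the 10 genes in each of the 3 libraries, on a log axis for the 6 genes averaging 1 FPKM or more (left) and on a linear axis for the 4 genes near or at 0 (right). Each point is 1 library without a replicate. *Igfbp7* was lowest in CTRL (18.9) and highest in TGF-β (49.4), while *Igfbp6* was highest in CTRL (375).

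TGF-β took 1 of the 10 genes past 2-fold, the study's criterion, and GDF15 took 0. The gene was *Igfbp7*. Of all 15554 rows, 0.913% passed 2-fold by TGF-β in either direction (0.579% higher and 0.334% lower), and 0.289% passed by GDF15. Between the stimulated libraries, 0 of the 10 genes differed more than 2-fold, against 0.103% of all rows. At the lower size of 1.5-fold, TGF-β passed 2 of the 10 genes, *Igfbp7* above CTRL and *Igf2* below it, where 3.6% of all rows passed (1.65% higher and 1.95% lower). GDF15 passed 0 of the 10 at 1.5-fold, against 1.81% of all rows (0.791% higher and 1.02% lower). Over the 10 genes GDF15 gave a median of 0.00 and TGF-β one of -0.01, with 5 genes higher and 4 lower by GDF15 and 3 higher and 5 lower by TGF-β, and over all rows both medians were 0.00. The 4 genes near 0 hold that median there. Over the 6 genes averaging 1 FPKM or more, given as a description, GDF15 gave 0.00 (3 higher and 3 lower) and TGF-β -0.37 (2 higher and 4 lower), beside -0.03 and -0.07 over the 9226 genes of that level. Both comparisons use the same CTRL library, so likeness between them is not independent.

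**Figure D2:**
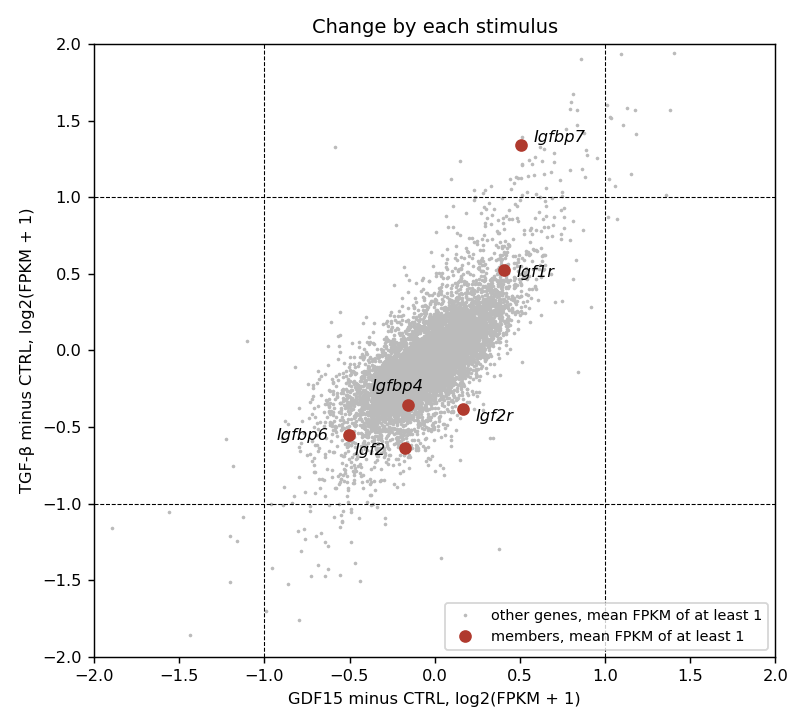
Change by GDF15 (x axis) and by TGF-β (y axis) against the same CTRL library, as differences of log2(FPKM + 1), for genes averaging 1 FPKM or more (grey) and the 6 IGF genes among them (red). Dashed lines mark 2-fold, and genes beyond the axes are not drawn. *Igfbp7* is the member above the upper line (0.51 by GDF15 and 1.34 by TGF-β), and *Igf2r* lies right of 0 for GDF15 and below 0 for TGF-β.

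*Igf2* was the ligand gene expressed here. CTRL held 10.4 FPKM, the GDF15 library 9.13 and the TGF-β library 6.36. It was therefore lowest after TGF-β, with GDF15 closer to CTRL. The change by TGF-β was -0.64, which is 2.75 local spreads below genes of like expression, and the ratio of TGF-β to CTRL was 0.609 (0.545 to 0.681). By GDF15 the change was -0.18 and the ratio 0.875 (0.795 to 0.962), within 1 local spread (-0.73 spreads). The change by TGF-β passed 1.5-fold narrowly, and with a common upper quartile (-0.58) or the expression trend subtracted (-0.55) it did not. TGF-β was also below GDF15, at a ratio of 0.696 (0.623 to 0.779). *Igf2* is imprinted and lies on chromosome 7 of GRCm38 (142650766 to 142666816, minus strand), with the insulin gene *Ins2* 11839 bases away. Of its 5723 exon bases in GENCODE M21, 3596 are shared with the same-strand gene *Gm49394*, and fragments of both could be counted together.

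*Igf1*, the main ligand of IGF1R in adult tissues, read 0.00787 FPKM in CTRL against 0.0133 after GDF15 and 0.0633 after TGF-β. These values correspond to an estimated 0.958, 1.92 and 7.45 fragments. The ratio of TGF-β to CTRL was 8.05, with an interval of 0.931 to 327, so a difference was not detectable at this depth.

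The receptor genes differed in direction after TGF-β. *Igf1r* (chromosome 7, 67952827 to 68233668, plus strand) stood at 15.9 FPKM in CTRL and at 21.4 and 23.3 after GDF15 and TGF-β, higher in both stimulated libraries. The ratio to CTRL was 1.34 (1.29 to 1.41) for GDF15 and 1.46 (1.40 to 1.53) for TGF-β. The changes of 0.40 and 0.52 lay 2.10 and 2.69 local spreads above genes of like expression. By TGF-β, *Igf1r* passed 1.5-fold only with a common upper quartile (0.59) or the expression trend subtracted (0.61). *Igf2r* (chromosome 17, 12682406 to 12769664, minus strand) stood at 74.0 FPKM in CTRL and at 83.1 and 56.6 after GDF15 and TGF-β. It was thus higher than CTRL after GDF15 and lower after TGF-β, although the GDF15 change came to 0.00 once the trend with transcript length was subtracted. GDF15 gave 0.16 and TGF-β -0.38, or 1.12 and -1.57 local spreads. Directly compared, TGF-β was at 0.682 of GDF15 (0.663 to 0.700), a change of -0.55 or -3.85 local spreads. From the low side, *Igf2r* ranked 76th of 9226 genes averaging 1 FPKM or more in that direct comparison. In FPKM, *Igf2r* stood at 4.64 times *Igf1r* in CTRL, 3.88 times in GDF15 and 2.42 times in TGF-β. *Igf2* stood at 0.655, 0.426 and 0.272 times *Igf1r* in the same order.

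Of the binding proteins, *Igfbp6* was the most abundant and was lower after both stimuli. CTRL held 375 FPKM, the GDF15 library 264 and the TGF-β library 256. Both stimulated libraries lay close together and below CTRL. The ratio to CTRL was 0.705 (0.681 to 0.729) for GDF15 and 0.682 (0.657 to 0.708) for TGF-β, and the ratio of TGF-β to GDF15 was 0.968 (0.931 to 1.01). The spread among genes of this level is wide, and the changes of -0.50 and -0.55 were -1.23 and -1.61 local spreads from the median of such genes. *Igfbp6* lies on chromosome 15 (102144362 to 102149511, plus strand).

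*Igfbp4*, an inhibitor of IGF action that proteases such as PAPP-A cleave, read 102 FPKM in CTRL against 91.8 after GDF15 and 79.8 after TGF-β. CTRL was highest and TGF-β lowest. The ratio to CTRL was 0.896 (0.867 to 0.927) for GDF15 and 0.779 (0.751 to 0.808) for TGF-β. Neither change reached 1.5 local spreads (-0.31 and -1.26). The gene lies on chromosome 11 (99041244 to 99054392, plus strand).

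*Igfbp7* went the other way. CTRL held 18.9 FPKM, the GDF15 library 27.3 and the TGF-β library 49.4, so that GDF15 lay between the other libraries. The ratio to CTRL was 1.44 (1.27 to 1.64) for GDF15 and 2.61 (2.32 to 2.94) for TGF-β. On the log2 scale GDF15 gave 0.51 and TGF-β 1.34, 2.61 and 7.55 local spreads above genes of like expression. Among the 9226 genes averaging 1 FPKM or more, *Igfbp7* ranked 40th from the highest by TGF-β and 173rd by GDF15. TGF-β exceeded GDF15 at a ratio of 1.81 with a lower bound of 1.64, a change of 0.83 that ranked 21st. The estimated fragments were 392, 668 and 989 in the same order. The interval from counting is narrow against the difference, and the limit is the missing replicates. The gene lies on chromosome 5 (77349240 to 77408041, minus strand) and shares 85 of its 1209 exon bases with the opposite-strand gene *Polr2b*. Whether strand was used in counting is not given in the sources used here.

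The remaining binding proteins were at or near 0. *Igfbp2* was listed at 0 in all 3 libraries, where a count of 0 allows up to 0.133, 0.113 and 0.138 FPKM in CTRL, GDF15 and TGF-β (3 fragments). *Igfbp5* was at 0.00945 in CTRL, an estimated 0.980 fragments, and was listed at 0 in both stimulated libraries. *Igfbp3*, which carries most circulating IGF and is a known TGF-β response gene in other cells, was listed at 0 in CTRL and TGF-β and at 0.143 in GDF15, an estimated 7.07 fragments. The GDF15 value was 1.996 and 1.93 times what 3 fragments, the number a count of 0 allows per library, would give in CTRL and TGF-β. With the counting error of those few fragments included, the ratio of GDF15 to CTRL had a lower bound of 1.22, and that of TGF-β to GDF15 an upper bound of 0.848. In fragments this is a very low level in a single library. Of these low genes, *Igfbp2* and *Igfbp5* are 5457 bases apart on chromosome 1 with 0 coding genes between them. *Igfbp3* lies 3539 bases from *Igfbp1* on chromosome 11. Like *Igfbp2*, but unlike *Igfbp3*, *Igfbp1* was listed at 0 in all 3 libraries.

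Taken as a pool, binding protein transcripts had a lower summed level and another composition after stimulation. The summed FPKM of the 6 binding protein genes came to 497 in CTRL and to 384 and 385 after GDF15 and TGF-β, differences from CTRL of -22.7% and -22.5%. The summed FPKM of all rows was also lower after stimulation, at 331179, 306603 and 310599 in CTRL, GDF15 and TGF-β. Without *Igfbp6* the binding protein sum was 121, 119 and 129, so *Igfbp6* carried the difference. The changes of *Igfbp6* were -1.23 and -1.61 local spreads from the median of genes of its level. Less the median of genes of like transcript length, they were -0.27 and -0.38 instead of -0.50 and -0.55. The share of *Igfbp6* in the pool was 75.6% in CTRL, against 68.9% and 66.5% after GDF15 and TGF-β. For *Igfbp7* the share was 3.81%, 7.11% and 12.8% in the same order. *Igfbp4* held 20.6%, 23.9% and 20.7%. Accordingly, *Igfbp6* exceeded *Igfbp7* 19.8 times in CTRL, but 9.69 and 5.18 times after GDF15 and TGF-β.

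**Figure D3:**
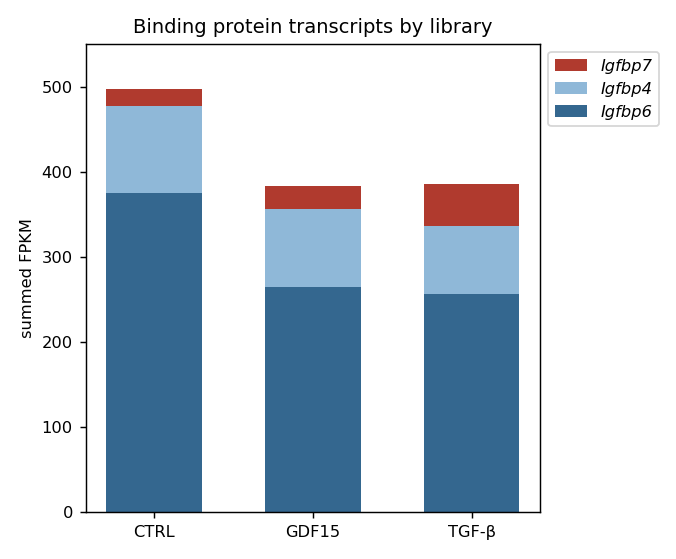
Summed FPKM of the binding protein genes in each library (bars from 0), split into *Igfbp6*, *Igfbp4* and *Igfbp7*. *Igfbp2*, *Igfbp3* and *Igfbp5* are too low to be seen. The bars reach 497 (CTRL), 384 (GDF15) and 385 (TGF-β), and the share of *Igfbp7* was 3.81%, 7.11% and 12.8%.

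Part of these changes moves with transcript length. Across 9193 genes averaging 1 FPKM or more and with a known length, which are not independent replicates, the change was more positive for longer transcripts in both comparisons (Spearman's rho 0.48 for GDF15 and 0.24 for TGF-β). *Igfbp6* (1112 bases) and *Igfbp7* (1200 bases) are short, and *Igf2r* (8887 bases) and *Igf1r* (11409 bases) are long. By GDF15, the 500 genes closest in length had a median of -0.23 for *Igfbp6* and 0.17 for *Igf1r*. Less this median, *Igfbp6* was at -0.27 and *Igf1r* at 0.23 by GDF15, within 1.5 spreads of genes of like length (-1.37 and 1.34). *Igf2r*, at 0.00 by GDF15, lay on the trend. By TGF-β, *Igf1r* kept 0.47, *Igf2r* -0.43, *Igf2* -0.59, *Igfbp4* -0.31 and *Igfbp6* -0.38 (-1.62 spreads). *Igfbp7* lay against the trend. Less the median of its length it was 0.72 higher by GDF15, past 1.5-fold, and 1.52 higher by TGF-β, or 3.69 and 6.86 spreads. The part of transcript length in the values as deposited was not tested further.

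**Figure D4:**
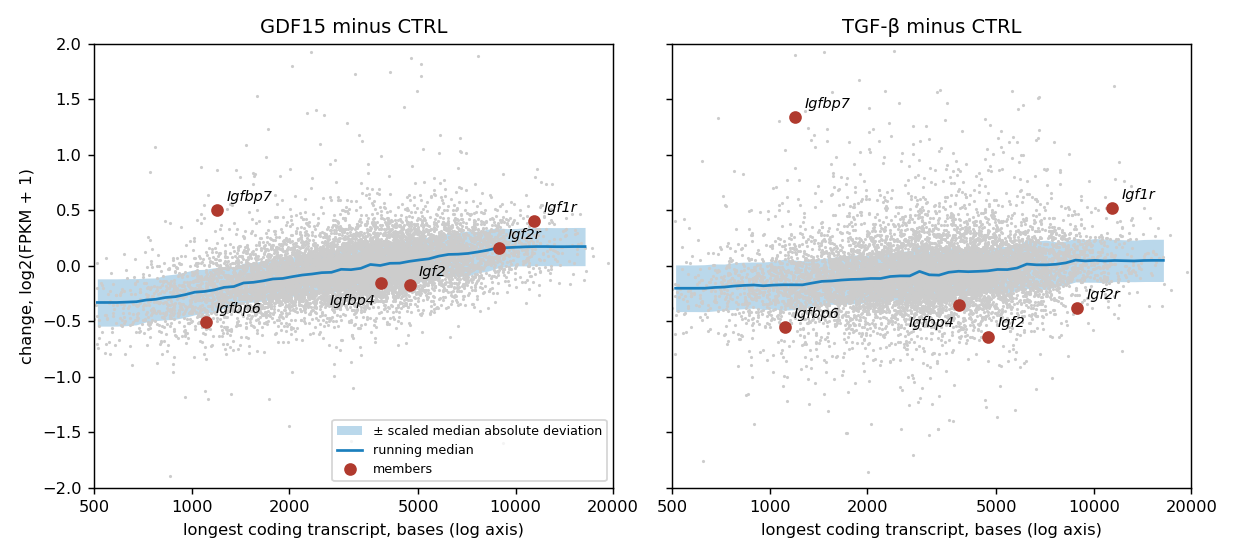
Change against the length of the longest coding transcript (log axis, bases) for GDF15 (left) and TGF-β (right), for genes averaging 1 FPKM or more (grey) and the 6 IGF genes among them (red). The line is the running median over the 500 genes nearest in length and the band is its scaled median absolute deviation. Genes beyond the y axis are not drawn. *Igfbp7* stands far above the band in both panels, and *Igf2r* lies on the line for GDF15.

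Promoter windows from RefSeq (GRCm38.p6), from 250 bases before to 50 after each annotated start, were found for all 10 genes, 14 windows in all. Those of the binding protein genes with opposite changes, *Igfbp7* and *Igfbp6*, and of *Igfbp3*, which was near 0, are shown to compare their base composition. Capitals mark matches on either strand to 3 motifs. CAGAC is a core Smad binding element. TATAAA is the core of a TATA box. GGCGGG is the core of a GC box.
Igfbp7, chr5:77407996-77408295, minus strand: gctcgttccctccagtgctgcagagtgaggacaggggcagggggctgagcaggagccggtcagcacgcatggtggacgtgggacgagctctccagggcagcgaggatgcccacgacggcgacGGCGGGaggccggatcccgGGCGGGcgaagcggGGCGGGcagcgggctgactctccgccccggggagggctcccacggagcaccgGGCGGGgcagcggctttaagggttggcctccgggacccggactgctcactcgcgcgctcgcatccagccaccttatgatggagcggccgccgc
Igfbp6, chr15:102143936-102144235, plus strand: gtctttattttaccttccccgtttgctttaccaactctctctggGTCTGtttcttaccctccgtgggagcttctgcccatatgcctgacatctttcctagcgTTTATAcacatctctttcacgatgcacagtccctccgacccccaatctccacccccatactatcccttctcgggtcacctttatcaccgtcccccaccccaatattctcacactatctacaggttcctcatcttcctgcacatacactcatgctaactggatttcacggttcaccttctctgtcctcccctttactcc
Igfbp3, chr11:7213874-7214173, minus strand: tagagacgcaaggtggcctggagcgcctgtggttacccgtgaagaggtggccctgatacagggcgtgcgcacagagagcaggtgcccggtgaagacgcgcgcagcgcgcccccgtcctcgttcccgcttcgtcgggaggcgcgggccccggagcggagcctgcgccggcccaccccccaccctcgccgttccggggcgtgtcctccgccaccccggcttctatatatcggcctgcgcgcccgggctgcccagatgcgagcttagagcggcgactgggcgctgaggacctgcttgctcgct
The *Igfbp7* window held 33 CpG and 73.3% G and C, with 4 matches to GGCGGG. The *Igfbp6* window held 8 CpG and 49.7% G and C, with 1 match each to CAGAC and TATAAA. The *Igfbp3* window held 37 CpG and 71.7% G and C, and none of the 3 motifs was found in it as an exact match. It does hold tatatat, which an exact match to TATAAA does not count. The median of 32851 windows was 7 CpG and 52.7% G and C, and 49.6% of them held CAGAC, 13.6% TATAAA and 35.3% GGCGGG. The windows of *Igfbp3* and *Igfbp7* thus had similar CpG numbers at very different levels, and *Igfbp6*, the most abundant, had the fewest of the 3. Of the binding protein windows not shown, that of *Igfbp4* held 27 CpG and 1 match to TATAAA. That of *Igfbp5*, near 0, held 10 CpG, and those of *Igfbp2*, at 0, held 18 and 14. The RefSeq start of *Igfbp6* lies upstream of the gene start in GENCODE M21. Its window ends at 102144235, before that start at 102144362, and so lies wholly outside the gene as annotated there.

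Beyond the 10 genes, the lists covered ligand partners, proteases, *Igf2* mRNA binding proteins, related receptors, signal transducers and imprinted growth genes. Of 47 listed pathway genes, 45 were in the table (*Pappa2* and *Plagl1* were not analysed here), 32 averaged 1 FPKM or more, and 7 were at 0 in all 3 libraries. TGF-β took 1 of the 45 below CTRL by more than 2-fold and 0 above, where 0.913% of all rows passed, and GDF15 took 0 in either direction, where 0.289% passed. At 1.5-fold, 1 was higher and 1 lower by GDF15, against 1.81% of all rows, and 1 was higher and 2 lower by TGF-β, against 3.6%. For the 45, GDF15 gave a median of 0.00 and TGF-β one of -0.02, where all rows had medians of 0.00.

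Among signal transducers, *Irs1*, the docking protein that couples IGF1R to PI3-kinase, read 12.7 FPKM in CTRL against 23.3 after GDF15 and 19.6 after TGF-β. It was the listed gene past 1.5-fold above CTRL by both stimuli, at ratios of 1.84 (1.75 to 1.94) and 1.55 (1.46 to 1.64), and it was higher after GDF15 than after TGF-β. The longest *Irs1* transcript has 9144 bases. Less the median of genes of that length, its changes were 0.67 and 0.55 instead of 0.83 and 0.59, so that the second no longer passed 1.5-fold. *Pik3r2*, a regulatory subunit of PI3-kinase, was at 50.7, 43.1 and 33.0 in CTRL, GDF15 and TGF-β, a change of -0.60 by TGF-β. Less the median of genes of like length (-0.51) or like expression (-0.53), it no longer passed 1.5-fold. *Akt1*, the most abundant of this list, was at 96.8, 89.9 and 86.5, with changes of -0.11 and -0.16.

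As differences of log2(FPKM + 1), genes for ligand release and related receptors showed no change past 1.5-fold. In plain FPKM, *Stc2* (2.15 in CTRL) passed 1.5-fold below CTRL by GDF15, at a ratio of 0.657 (0.508 to 0.844). By TGF-β its ratio was 0.868 (0.681 to 1.12). *Htra4* (0.513 in CTRL) had ratios of 0.497 (0.211 to 1.08) and 0.662 (0.289 to 1.42). *Stc1*, at 1.72 by GDF15, had an estimated 1.09 and 2.22 fragments in CTRL and GDF15. *Htra3*, the highest of the listed proteases and regulators, was at 5.23, 4.49 and 5.59 in CTRL, GDF15 and TGF-β. *Insr*, the insulin receptor gene, was at 7.72, 9.60 and 7.76. *Igf2bp2*, one of the proteins that bind *Igf2* mRNA, was at 40.3, 38.8 and 34.6. *Igfals*, the acid labile subunit of the circulating IGF complex, was at 0.0560, 0.0480 and 0.0294, an estimated 2.54, 2.57 and 1.29 fragments, and the other 4 genes of its list were listed at 0. Of the imprinted growth genes, *Dlk1*, a membrane protein of progenitor cells, had the listed genes' largest change, as a difference of log2(FPKM + 1), after TGF-β. CTRL held 229 FPKM, the GDF15 library 148 and the TGF-β library 94.2. The ratio to CTRL was 0.647 (0.633 to 0.661) for GDF15 and 0.411 (0.400 to 0.422) for TGF-β, changes of -0.63 and -1.27. Less the median of genes of like expression, the change by GDF15 was -0.52 and did not pass 1.5-fold. Less the median of genes of like length it was -0.66 and still passed.

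**Figure D5:**
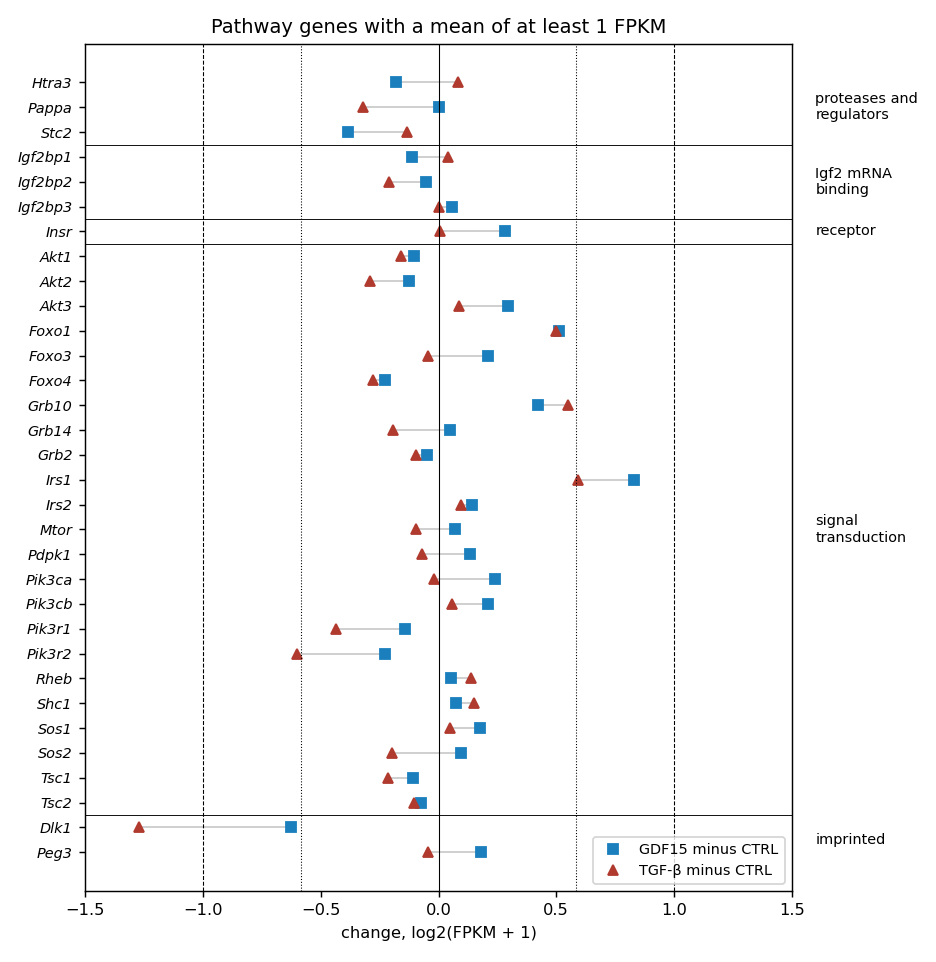
Change by GDF15 (squares) and TGF-β (triangles) against CTRL for the 32 listed pathway genes averaging 1 FPKM or more, grouped by role. Dashed lines mark 2-fold and dotted lines 1.5-fold. *Dlk1* is the gene past the 2-fold line (-1.27 by TGF-β), and *Irs1* reaches 0.83 by GDF15.

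For the 3 members with the largest change in either single comparison with CTRL, the genes most like them were sought by the Euclidean distance of the pair of changes, over 3 libraries and 5418 genes averaging 10 FPKM or more. Nearest to *Igfbp7* were *Hsd17b7*, *Idi1* and *Asns*, at distances of 0.11, 0.12 and 0.13. Nearest to *Igf2* were *Gm1673*, *Abhd8* and *Fzd1*, at 0.030, 0.032 and 0.032. *Igfbp6* was nearest to *Pcgf2*, *Sys1* and *Baiap2*, at 0.017, 0.023 and 0.023. With 3 libraries that share CTRL, a small distance describes the values only.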

How the data were processed

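The data are 1 table of gene expression from RNA-sequencing of 3 NIH3T3 libraries, 1 per treatment, each from pooled RNA. The authors deposited FPKM from Cufflinks, computed on stranded 50-base single-end reads, for protein coding genes that UniProt had reviewed. The submitters' processing notes name TopHat 1.3.2, Bowtie 0.12.9, Cufflinks 2.0.2 and mm10; the annotation is not given in the sources used here. Columns were matched to samples by the treatment in the column name.

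Changes are differences of log2(FPKM + 1). Criteria were 2-fold and 1.5-fold. No test was possible with 1 library per treatment. Transcript length and coordinates came from GENCODE M21 (GRCm38, the same assembly as mm10), which matched 15473 of 15554 rows, 748 of them by an older symbol in RefSeq. Depth was estimated from the lowest cluster of FPKM times length over genes with a single coding transcript. The most frequent ratio of low values gave depths relative to CTRL of 1.17 (GDF15) and 0.954 (TGF-β). The floor was 3 fragments.

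The members and gene lists were chosen with earlier results of these data known. Named are all members, listed pathway genes past 1.5-fold or the highest of their list, *Acta2*, *Ctgf* and the 3 nearest genes of 3 members. *Foxo1* and *Mest*, past 1.5-fold by both stimuli in plain FPKM, were named after their values were seen, as were *Stc1*, *Stc2* and *Htra4*. *Polr2b* and *Gm49394* overlap members in the annotation, *Ins2* and *Igfbp1* adjoin members, and the cell type markers were named by list. The alternatives were pseudocounts of 0.5, 0.1 and none, a minimum mean FPKM of 1, a common upper quartile, and subtraction of running medians by expression or transcript length. The scripts were tested on simulated data. Software comprised matplotlib 3.10.9, scipy 1.17.1, pandas 2.3.3 and numpy 2.4.6 under Python 3.11.15.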

Additional observations from a re-analysis of the deposited data

How the results depend on the processing

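No paired analysis was possible because RNA was pooled into 1 library per treatment, which also leaves none to omit. *Igfbp7* passed 2-fold by TGF-β under all 7 alternatives, with changes between 1.34 and 1.52. A smaller or absent pseudocount and the minimum mean could not have taken it below 2-fold. The settings that could were the common upper quartile (1.41) and the running medians by expression (1.40) and by transcript length (1.52). Of 189 changes of single members under the alternatives, 159 were classed as unmoved and 30 as moved, judged by the counting interval. Where both libraries were at 0 no interval exists, and a value other than 0 was classed as moved. The minimum mean leaves a value as it is, so its rows were unmoved by construction. Of the 189 changes, the sign differed in 2, both by GDF15 with the running median by transcript length subtracted (*Igf1* at -0.11 and *Igf2r* at -0.00065).

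With a pseudocount of 0.1, *Igfbp3* (0 fragments in CTRL and TGF-β) became the 1 member past 2-fold and past 1.5-fold by GDF15, and the 1 past 2-fold between GDF15 and TGF-β. Without a pseudocount, *Igf1* (under 3 fragments in CTRL and GDF15) made 2 members past 2-fold by TGF-β, 1 between GDF15 and TGF-β, and 1 past 1.5-fold by GDF15. With the length median subtracted, *Igfbp7* was the 1 member past 1.5-fold by GDF15. Of the pathway genes, 1 passed 2-fold by GDF15 with a pseudocount of 0.1 (*Mest*, named after its values were seen, as is *Htra4*) and 2 without one (*Mest* and *Htra4*), and 2 by TGF-β under either (*Dlk1* and *Mest*). Between *Igf2* (-0.58) and *Igf1r* (0.59), a common upper quartile exchanged which gene passed 1.5-fold by TGF-β beside *Igfbp7*, as did the expression trend (-0.55 and 0.61), while the count stayed at 2. With a pseudocount of 0.1 or none, *Igf1* made that count 3. With a common upper quartile, the summed binding protein FPKM was 399.5 in GDF15 and 404 in TGF-β, still below the 497 of CTRL.

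Over all rows, the number past 2-fold by GDF15 was 45 as reported, 71 with a pseudocount of 0.5, 315 with 0.1 and 589 without one. By TGF-β it was 142, 196, 489 and 789, and between the stimulated libraries 16, 32, 227 and 525. Past 1.5-fold it was 281 by GDF15, 1099 with a pseudocount of 0.1, 1333 without one and 181 with the length median subtracted, and 560, 1544 and 1702 by TGF-β under the first 3 of these. Depth limits *Igf1*, *Igfbp2*, *Igfbp3* and *Igfbp5*, and the missing replicates limit the rest.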
